A study of Mus musculus with 6 samples.

Results

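The elastic fibre is the extensible part of the extracellular matrix, and the genes described here encode its main parts and the proteins that hold latent TGF-beta in the same network. They were chosen by name as 10 genes out of the 55536 in the count tables. These are the elastin gene Eln, the fibrillin genes Fbn1 and Fbn2, the fibulin gene Fbln5, the lysyl oxidase genes Lox and Loxl1, and Ltbp1, Ltbp2, Ltbp3 and Ltbp4, which encode the latent TGF-beta binding proteins. The choice was by family and used no measured value directly, but it was made with results of the cKO against control comparison known, so the values and calls given here describe these genes and support nothing beyond them.

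The RNA-seq libraries were made from muscle stem cells, called satellite cells, of adult mice (8 to 12 weeks of age, C57BL/6J strain). Control mice carried Pax7CreErt2 with 1 floxed and 1 intact Hira allele (Hira fl/+), although the sample labels call them WT, and cKO mice carried Pax7CreErt2 with both alleles floxed (Hira fl/fl). The Cre recombinase is driven from Pax7, so that deletion is restricted to cells with a Pax7 history, and tamoxifen, given in the diet for 2 weeks, was followed by injury of the muscle with barium chloride. Cells positive for CD34 and ITGA7 and negative for CD45, TER119 and SCA1 were sorted 5 days after injury and cultured for 48 h in medium with 20% serum on Matrigel, itself an extracellular matrix, before RNA was extracted from 3 control and 3 cKO samples. Nothing in the sources used here states that each sample came from a separate mouse, and the p-values therefore measure the spread between these samples only.

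The libraries held 47944477 to 63323577 counts on genes. The targeted gene Hira encodes a chaperone of histone H3.3. It was covered by 375, 348 and 341 counts in control and by 161, 293 and 272 in cKO (log2 fold change -0.43, adjusted p = 0.0237 by edgeR). All cKO samples were below all control samples in CPM. Another gene model on the same strand, Gm28539, overlaps 44.7% of its exon bases and had 0 counts in every sample. How reads in the shared bases were assigned is therefore not known. By other assays, the paper reports sharply reduced Hira RNA (RT-qPCR) and no detected HIRA protein in satellite cells of cKO mice. In these libraries Hira in cKO was at 0.74 times its control level, a smaller reduction than the paper's RT-qPCR gave. The reason for that gap was not tested. CPM is the count of a gene relative to the library total, scaled by the TMM method to a common library size. Differences are log2 fold changes of cKO over control from edgeR's quasi-likelihood test fitted to all 22404 genes tested, and a gene is said to have risen or fallen where its Benjamini-Hochberg adjusted p over all these genes was under 0.05. The defining genes of myogenic cells were abundant in both groups, with Des (desmin) averaging 3226 CPM in controls and 2901 CPM after deletion, and Myod1 at 779 and 699 CPM.

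In an elastic fibre, a core of cross-linked elastin lies on a scaffold of microfibrils built from fibrillin. Fibulin-5 brings tropoelastin to the microfibril, and lysyl oxidases oxidise lysine residues so that elastin and collagen chains become covalently linked. TGF-beta is secreted in a latent form bound to its own propeptide, and latent TGF-beta binding proteins, which resemble fibrillins in their EGF-like and cysteine-rich domains, attach that complex to the matrix until it is activated. LTBP-1 and LTBP-3 bind the complex well and LTBP-4 binds it weakly, whereas LTBP-2 does not bind it and is found on microfibrils.

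In cKO satellite cells most of these genes were more highly expressed, by up to 2.16-fold. Ltbp2, Fbln5, Fbn1, Lox, Ltbp4 and Loxl1 rose, Ltbp1 fell, and Ltbp3, Fbn2 and Eln did not pass the test. All 10 genes passed the filter on low counts. In bulk RNA, a difference in the number of cells of a type cannot be told apart from a difference in RNA per cell. Of the listed genes, 6 of the 10 were called higher, against 9.38% of all genes tested, and 1 was called lower, against 6.46%. The median log2 fold change of the 10 genes was 0.36, while that of all genes tested was -0.0011. In 7 of the 10 genes the cKO samples lay wholly on one side of the control samples, as was the case for 31.8% of all genes; the cKO samples lay above in 6 of the 10 (16.8% of all genes) and below in 1 (15% of all genes). As this contrast was known when the genes were listed, nothing is read from these shares.

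**Figure D1:**
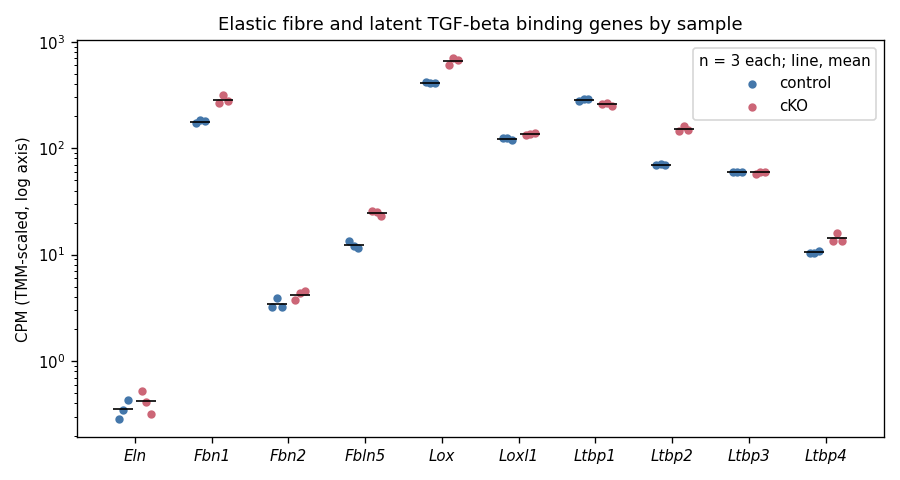
CPM of the 10 genes on a log axis, one point per sample (blue, control; red, cKO; n = 3 each) with a line at the mean. The cKO points lie above the control points for Fbn1, Fbln5, Lox, Loxl1, Ltbp2 and Ltbp4 and below them for Ltbp1, and the groups overlap for Eln, Fbn2 and Ltbp3.

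The core component elastin was barely expressed. Eln (ENSMUSG00000029675, chromosome 5, 134702593 to 134747323 of mm10) was covered by 16, 22 and 26 counts in control and by 25, 25 and 18 in cKO. The groups overlapped, and cKO replicates 2 and 3 lay within the control range. The log2 fold change of 0.22 had a 95% interval from -0.37 to 0.81 (adjusted p = 0.682 from edgeR), so a difference anywhere within that interval was not excluded. Of its 36 merged exons, 21 are shorter than the 75-base reads, and the aligner did not split reads, so that reads over exon junctions could not be aligned whole in any sample.

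The main microfibril gene rose. Fbn1 (ENSMUSG00000027204, chromosome 2, 125300594 to 125507993), which encodes fibrillin-1, was at 171, 183 and 178 CPM in the control samples and at 264, 317 and 277 CPM in the cKO samples. The lowest cKO sample was well above the highest control sample, and cKO replicate 2 was the highest. The difference on the log2 scale was 0.69, with a standard error of 0.05 (edgeR, adjusted p = 2.53e-07). A gene model on the opposite strand, Gm9913, overlaps 20.1% of the exon bases of Fbn1. Since the strand setting of the counting was not stated, reads in the shared bases cannot be fully told apart. Gm9913 held 45 to 104 counts per sample against at least 9594 for Fbn1, but these counts do not show how reads in the shared bases were assigned.

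Fbn2 (ENSMUSG00000024598, chromosome 18, 58008623 to 58210487), which encodes fibrillin-2, the form associated with developing tissue, was low. It was at 3.25, 3.88 and 3.22 CPM in control and 3.75, 4.33 and 4.53 CPM in cKO. The groups overlapped through control replicate 2. The difference on the log2 scale was 0.29, with a standard error of 0.10 (edgeR, adjusted p = 0.0762). By edgeR, the adjusted p was 0.0415 without control replicate 2, 0.0241 without cKO replicate 1 and 0.0468 without the filter on low counts. In all other alternative fits it stayed above 0.05, from 0.0563 (edgeR, total counts only) to 0.253 (edgeR, without cKO replicate 3). With DESeq2 it was 0.155. Fibrillin transcripts, compared per exon length, came almost wholly from Fbn1, with 98.2% ± 0.142 of the summed level in control and 98.7% ± 0.129 in cKO (SD, n = 3 each).

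Fbln5 (ENSMUSG00000021186, chromosome 12, 101746565 to 101819055) about doubled. It was at 13.5, 11.9 and 11.6 CPM in the control samples and 25.9, 25.3 and 23.3 CPM in the cKO samples, and the groups were far apart. The difference on the log2 scale was 1.01, with a standard error of 0.06 (edgeR, adjusted p = 2.05e-08).

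Both listed lysyl oxidases rose, by very different amounts. Lox (ENSMUSG00000024529, chromosome 18, 52516067 to 52529867) was at 415, 410.2 and 407 CPM in control and at 604, 699 and 672 CPM in cKO (log2 fold change 0.68, standard error 0.04, adjusted p = 3.38e-08 from edgeR). The control samples differed among themselves by only 1.04% (coefficient of variation) and the cKO samples by 7.37%. Loxl1 (ENSMUSG00000032334, chromosome 9, 58287738 to 58313186), the relative most closely tied to elastin, was at 124, 125 and 118 CPM in control and at 133, 137 and 138 CPM in cKO. The groups did not overlap, but the difference was only 0.16 on the log2 scale, with a standard error of 0.03 (edgeR, adjusted p = 0.00372).

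The latent TGF-beta binding proteins went different ways. Ltbp1 (ENSMUSG00000001870, chromosome 17, 75005568 to 75392512) was at 276, 288 and 290.4 CPM in the control samples and at 262, 263 and 249 CPM in the cKO samples. Each cKO sample was below each control sample, by a small margin at the nearest pair. The difference on the log2 scale was -0.14, with a standard error of 0.03 (edgeR, adjusted p = 0.00688); without control replicate 3 the adjusted p was 0.0507, and no listed gene was then called lower.

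Ltbp2 (ENSMUSG00000002020, chromosome 12, 84783212 to 84876532) changed most among the 10 genes. Its values were 69.0, 70.2 and 69.8 CPM in control, which is a spread of under 1 CPM (SD 0.615), and 146, 160 and 147 CPM in cKO. The difference on the log2 scale was 1.11, with a standard error of 0.04 (edgeR, adjusted p = 1.37e-10) and ranged from 1.07 to 1.14 when single samples were omitted. An antisense gene, D030025P21Rik, overlaps 9.34% of its exon bases and had 39 to 123 counts per sample against at least 3871 for Ltbp2. How reads in the shared bases were assigned is not shown by these counts.

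Ltbp3 (ENSMUSG00000024940, chromosome 19, 5740904 to 5758532) was at 59.2, 60.1 and 59.3 CPM in control and 57.1, 60.3 and 60.1 CPM in cKO. The groups overlapped, and the log2 fold change of -0.01 had a 95% interval from -0.08 to 0.07 (adjusted p = 0.921 from edgeR). Ltbp4 (ENSMUSG00000040488, chromosome 7, 27305136 to 27337692) was at 10.3, 10.4 and 10.9 CPM in control and at 13.6, 15.9 and 13.3 CPM in cKO, with no overlap. The difference on the log2 scale was 0.44, with a standard error of 0.07 (edgeR, adjusted p = 0.000383).

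**Figure D2:**
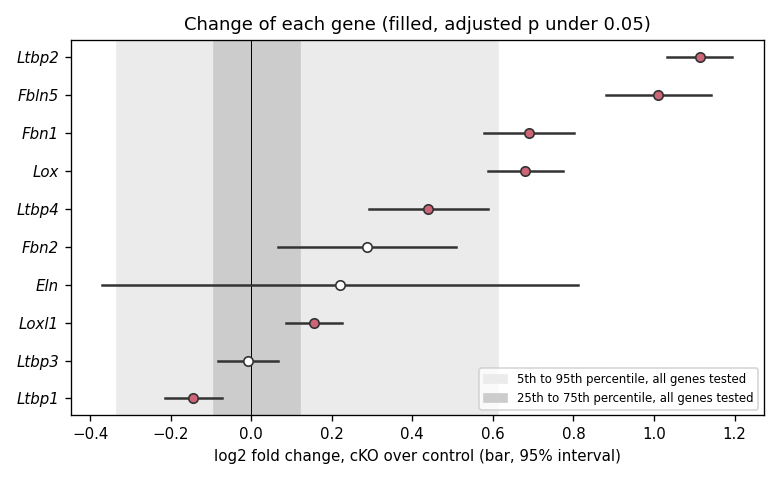
Log2 fold change of cKO over control for each gene, with its 95% interval; filled points passed an adjusted p of 0.05, and the bands give the middle 50% and middle 90% of all 22404 genes tested. Ltbp2, Fbln5, Fbn1 and Lox lie above the wider band, which ends at 0.61, while Ltbp1 lies below the narrower band, which starts at -0.09.

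Since the 4 LTBP genes differed in direction, their make-up shifted. Per exon length, Ltbp1 provided 60.9%, 61.6% and 61.9% of the summed LTBP level in control and 48.3%, 46.2% and 46.7% in cKO. The share of Ltbp2 was 19.9%, 19.6% and 19.4% in control and 35.1%, 36.7% and 35.9% in cKO. Thus Ltbp1 remained the most abundant LTBP transcript in each sample, with a smaller lead. Ltbp3 provided 15.1% ± 0.254 in control and 12.7% ± 0.462 in cKO, and Ltbp4 3.76% ± 0.0775 and 4.29% ± 0.280 (SD, n = 3 each).
In the lysyl oxidase family, which was completed with Loxl2, Loxl3 and Loxl4 for this purpose, Lox provided 59.2% ± 0.286 of the summed level in control and 62.6% ± 1.01 in cKO. Loxl1 provided 25.5% ± 0.439 and 18.8% ± 0.863, and Loxl3 12.2% ± 0.240 and 14.6% ± 0.555 (SD, n = 3 each). Both shifts follow from the fold changes already given and were not tested separately.

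**Figure D3:**
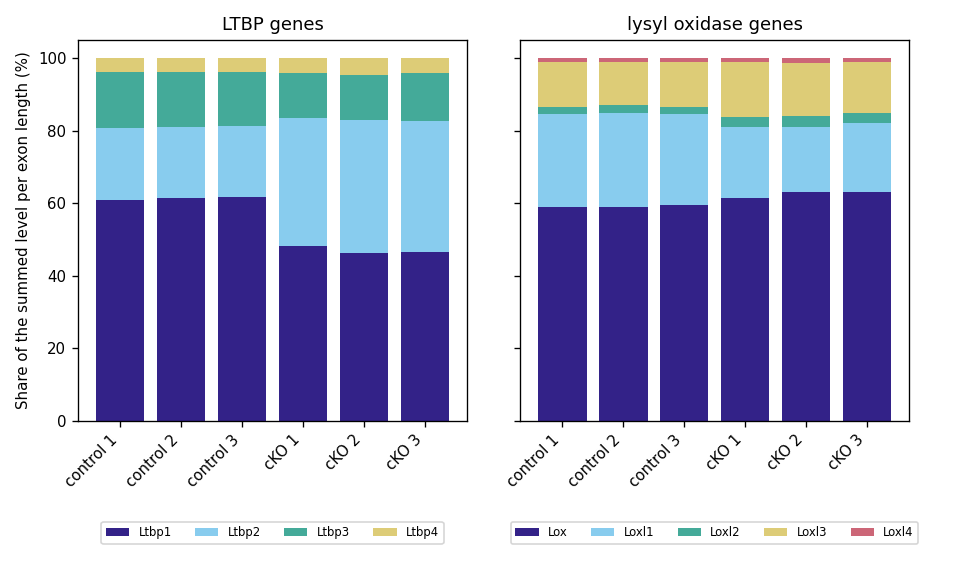
Share of each gene in the summed level per exon length of its family, by sample, for the 4 LTBP genes and the 5 lysyl oxidase genes. Ltbp1 takes 60.9% to 61.9% of the LTBP level in control samples and 46.2% to 48.3% in cKO samples.

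The order of the 10 genes by level can be given only per length. Expressed as CPM per kilobase of merged exon, the control means ran from 85.9 ± 0.894 for Lox through 37.0 ± 1.03 for Loxl1, 26.6 ± 0.727 for Ltbp1, 14.6 (range 14.1 to 15.1) for Fbn1, 8.51 ± 0.0751 for Ltbp2, 6.56 ± 0.0537 for Ltbp3, 1.78 ± 0.147 for Fbln5, 1.63 ± 0.0513 for Ltbp4 and 0.261 ± 0.0285 for Fbn2 to 0.0437 ± 0.00877 for Eln (SD, n = 3 each). The sample ranges of neighbours in this order overlapped only for Fbln5 and Ltbp4. In cKO the order of means by exon length was the same, but Fbn1, at 23.6 ± 2.27, came so close to Ltbp1, at 24.1 ± 0.712, that their sample ranges overlapped, whereas Fbln5, at 3.59 ± 0.197, had moved clear of Ltbp4, at 2.20 ± 0.219. When the level was divided by the number of 75-base windows that lie within 1 exon in place of the exon length, Fbln5 (2.03) and Ltbp4 (2.71) changed places in control and no other gene did. By such windows the cKO order differed from that by exon length in another pair, since Fbn1, at 38.8 (range 35.9 to 43.0), came before Ltbp1, at 31.9 (range 30.8 to 32.5), with no overlap. Fbln5 (4.09) still came before Ltbp4 (3.66) in cKO, but their sample ranges overlapped.

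The windows before the start sites of the listed genes were compared because the LTBP paralogues differed in direction. RefSeq promoter windows (GRCm38.p6, the same build as mm10) were used for 6 of the 10 genes. Where the table held several windows for a gene (3 for Ltbp4, 2 each for Ltbp1 and Fbln5), the one whose start site lies nearest to the GENCODE start was taken, and the motif counts hold for the chosen windows only. The start site of the Fbn1 window lies 1555 bases from the GENCODE start of the gene. The 250 bases before the start site are printed for the 4 LTBP genes and for Fbln5, which rose nearly as far as Ltbp2. Capitals mark the GC box GGGCGG on either strand. The windows are chr17:75005279-75005528 (plus strand) for Ltbp1, chr12:84876492-84876741 (minus strand) for Ltbp2, chr19:5740650-5740899 (plus strand) for Ltbp3, chr7:27337613-27337862 (minus strand) for Ltbp4 and chr12:101819120-101819369 (minus strand) for Fbln5.
Ltbp1: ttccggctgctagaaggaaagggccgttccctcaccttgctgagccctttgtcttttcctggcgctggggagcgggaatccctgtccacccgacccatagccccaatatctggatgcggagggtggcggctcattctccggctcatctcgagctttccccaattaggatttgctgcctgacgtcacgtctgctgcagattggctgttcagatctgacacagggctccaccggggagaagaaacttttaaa
Ltbp2: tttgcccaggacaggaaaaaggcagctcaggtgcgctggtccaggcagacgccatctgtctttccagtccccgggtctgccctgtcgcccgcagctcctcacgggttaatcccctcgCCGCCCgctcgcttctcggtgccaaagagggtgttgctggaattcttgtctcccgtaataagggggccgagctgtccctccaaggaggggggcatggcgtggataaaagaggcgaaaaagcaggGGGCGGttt
Ltbp3: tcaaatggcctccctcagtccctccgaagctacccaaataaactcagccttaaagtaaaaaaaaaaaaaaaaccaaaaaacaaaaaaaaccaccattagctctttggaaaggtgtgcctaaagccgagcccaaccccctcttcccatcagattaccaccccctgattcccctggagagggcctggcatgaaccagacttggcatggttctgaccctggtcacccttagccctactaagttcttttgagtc
Ltbp4: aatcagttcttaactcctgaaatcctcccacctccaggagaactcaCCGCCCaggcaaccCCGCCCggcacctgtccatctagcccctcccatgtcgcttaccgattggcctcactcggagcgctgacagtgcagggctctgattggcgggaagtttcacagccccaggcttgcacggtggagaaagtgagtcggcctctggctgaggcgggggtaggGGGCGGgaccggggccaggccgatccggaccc
Fbln5: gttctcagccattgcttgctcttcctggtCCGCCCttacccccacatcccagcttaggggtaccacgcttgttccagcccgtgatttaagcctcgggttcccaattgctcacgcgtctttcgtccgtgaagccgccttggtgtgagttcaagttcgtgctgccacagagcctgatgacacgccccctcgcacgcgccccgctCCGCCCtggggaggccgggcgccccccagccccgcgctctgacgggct

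A GC box was held by 10727 of the 32536 windows of this length in the table. Among the listed genes it occurred 2 times in Ltbp2, 3 times in Ltbp4, 2 times in Fbln5 and 1 time in the window of Fbn1 (chr2:125506439-125506688, minus strand), and not in Ltbp1 or Ltbp3. The GC content of the windows was 61.6% in Ltbp2, 64.4% in Ltbp4, 65.2% in Fbln5, 59.2% in Fbn1, 56.8% in Ltbp1 and 47.2% in Ltbp3, against a median of 52.4% over all windows, so the genes with a GC box also had the more GC-rich windows. None of the 6 windows held the TATA box TATAAA on either strand, a motif of 12.3% of all windows. The same was true of the AP-1 motif TGANTCA, which occurs in 6.73% of all windows, and of the E-box CAGCTG, which occurs in 13.1%. The TEAD motif GGAATG, present in 12.6% of all windows, and the SMAD element GTCTAGAC, present in 0.169%, were likewise not found. The short SMAD site CAGAC, found in 42.2% of all windows, occurred 1 time in Ltbp1, 2 times in Ltbp2 and 1 time in Ltbp3. These matches describe letters and not binding.

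Other genes of the pathway were taken from 6 lists by family or role, with 87 genes in all, of which 83 were tested; 47 rose and 2 fell, where 9.38% of all genes tested were called higher and 6.46% lower. The lists were written with the earlier results of this contrast known. Among 25 elastic fibre and microfibril partners, 24 were tested, 9 rose and 1 fell, with a median log2 fold change of 0.14. The largest rises were those of Mfap5 (1.37), a microfibril glycoprotein, Efemp1 (1.26) and Fbln2 (1.05), 2 fibulins, and Emilin2 (0.59). Fbln2 was by far the most abundant of these, with a mean of 137 ± 0.599 CPM in controls against 284 ± 25.2 CPM in cKO samples (SD, n = 3 each; adjusted p = 1.51e-09 from edgeR). The gene that fell was Thsd4 (-0.38), an ADAMTS-like protein that associates with fibrillin.

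Of 10 cross-linking relatives and helpers, 9 were tested and 7 rose, with a median of 0.33; none of the 9 fell by edgeR or DESeq2, and 0 were lower at an unadjusted p under 0.05. They included the remaining lysyl oxidases Loxl2 (1.09), Loxl3 (0.86) and Loxl4 (0.72), and Tll1 (1.21), a tolloid-like protease of the family that processes pro-lysyl oxidase. Loxl3 was at 83.2, 79.9 and 81.5 CPM in control and at 143, 157 and 143 CPM in cKO. The copper transporter gene Atp7a, whose product supplies the metal of these enzymes, had a log2 fold change of -0.0022.

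Of 13 latent TGF-beta ligands and activators, 7 rose and 1 fell, with a median of 0.26. The ligand genes themselves did not pass the test: the log2 fold changes were -0.06 for Tgfb1, -0.05 for Tgfb2 and 0.06 for Tgfb3. The genes with the largest changes encode proteins that hold or release the latent ligand. Lrrc32, which tethers latent TGF-beta at the cell surface, was at 27.2, 30.7 and 31.4 CPM in control and 76.9, 83.4 and 71.6 CPM in cKO (log2 fold change 1.37, adjusted p = 7.12e-10 from edgeR). Thbs1, which encodes thrombospondin-1, an activator, rose from 2408 ± 4.77 to 3918 ± 230.2 CPM (SD, n = 3 each), or by 0.70 on the log2 scale. Tgm2 (0.64) and the integrin gene Itgb3 (0.35) also rose, and Itgb6, the partner of Itgav in an activating integrin, fell (-0.29).

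Of 13 receptor and SMAD genes 7 rose, with a median of 0.13; 0 fell by edgeR or DESeq2, also at an unadjusted p under 0.05 in edgeR. Acvrl1 (0.86) and Eng (0.55), which encode receptors best known from endothelium, rose together with the co-receptor gene Tgfbr3 (0.81) and the pseudoreceptor gene Bambi (0.64), whereas the main receptor genes Tgfbr1 and Tgfbr2 had log2 fold changes of 0.07 and 0.08 and did not pass the test. Of 12 target genes 9 rose, with a median of 0.26; 0 fell by edgeR or DESeq2, and 0 were lower in edgeR at an unadjusted p under 0.05. Col1a1 (1.29) and Ccn2 (1.04) changed most, and Ccn2 had 420, 422 and 432 CPM in control samples against 834, 926 and 853 CPM in cKO samples. Junb (0.09), Pmepa1 (0.05) and Bhlhe40 (0.13) did not pass the test.

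Among 14 elastin-degrading proteases and their inhibitors, 12 were tested and 8 rose, with a median of 0.40; 0 fell by edgeR, where 1 was lower at an unadjusted p under 0.05, and 1 fell by DESeq2. The largest changes were those of Mmp9 (1.46), Ctsk (1.31), Mmp12 (1.25) and Ctss (1.19), all proteases that macrophages are known to produce. Mmp9 was barely expressed, with 8, 16 and 13 counts in control samples and 18, 46 and 30 in cKO samples. The size of the Mmp9 change is therefore uncertain (standard error 0.33). Mmp12 averaged 11.6 ± 0.510 CPM in controls against 27.6 ± 1.93 CPM in cKO samples (SD, n = 3 each). Mmp2, a gelatinase of stromal and muscle cells, had a log2 fold change of 0.04 and was not called, whereas Mmp14 was called higher (0.32). The cells that these protease transcripts came from were not tested. Mmp7 and Elane had 0 counts in all samples.

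**Figure D4:**
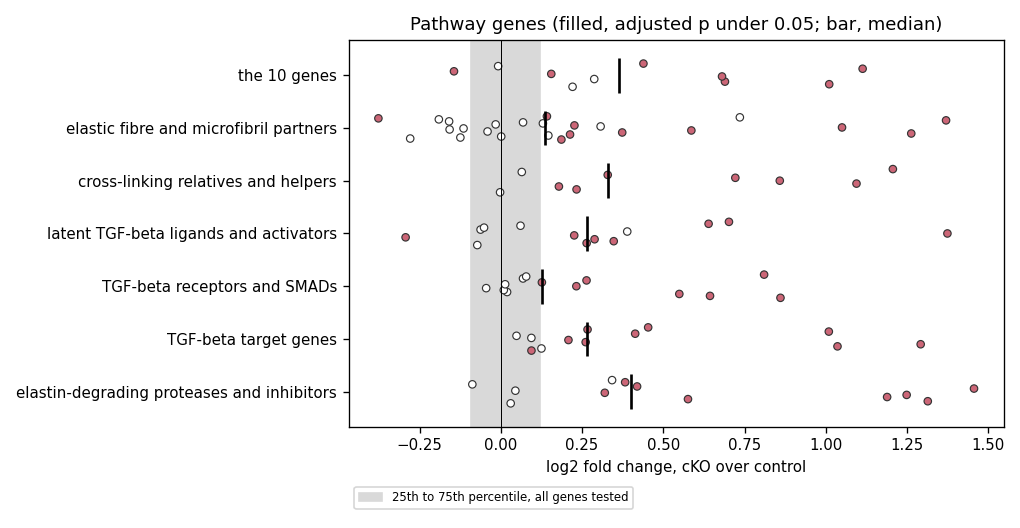
Log2 fold change of each tested gene of the 10 listed genes and of the 6 pathway lists; filled points passed an adjusted p of 0.05, the bar is the median of the list and the band holds the middle 50% of all genes tested. The medians of the lists lie between 0.13 (receptors and SMADs) and 0.40 (proteases and inhibitors).

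The marker lists of other cell types had higher summed levels in cKO, except the tendon list, which was lower. The 13 fibroblast markers summed to 68.4 to 71.2 CPM in control and 143 to 165 CPM in cKO, a 2.17-fold higher mean, with 7 of the 10 tested called higher. All 10 had a positive log2 fold change, with a median of 0.96. Over all 22404 genes tested, 11124 had a positive log2 fold change. Pdgfra averaged 23.1 CPM in controls and 51.0 CPM after deletion, and Smoc2 29.7 and 67.5 CPM. Several defining fibroblast markers were nearly absent: Lum had 0 to 2 counts in control samples and 5 to 12 in cKO samples, Clec3b had 0 or 1 and 0 to 3, Dpp4 had 1 to 3 and 3 to 7, and Dpt and Pi16 had at most 42 counts in any sample. The 13 macrophage markers summed to 124 to 130 CPM in control and 261 to 302 CPM in cKO, with 12 called higher. Mfap5 stands in both the fibroblast and the microfibril list. The sort gated against CD45 and SCA1, which mark leukocytes and many muscle fibroblasts. Ptprc, the CD45 gene, still had 72 to 94 counts in control samples and 126 to 169 in cKO samples (log2 fold change 0.96), and Ly6a, which encodes SCA1, had 175 to 198 and 183 to 211 counts (log2 fold change 0.24, not called).
The 12 endothelial markers summed to 23.6 to 25.5 and 33.7 to 40.1 CPM, with 5 called higher, and the 10 smooth muscle and pericyte markers to 357 to 364 and 415 to 467 CPM, with 6 of 9 tested called higher and 2 lower. The 6 glial markers summed to 11.2 to 11.7 and 12.5 to 15.5 CPM, with 0 of 4 tested called by edgeR and 3 higher at an unadjusted p under 0.05. The 5 tendon markers summed to 105 to 106 CPM in control and 91.1 to 99.8 CPM in cKO, with 1 called higher (Thbs4, 0.49) and 1 lower (Fmod, -0.51). The 12 satellite cell and myoblast markers summed to 10118.5 to 10252 CPM in control and 8741 to 9408 CPM in cKO, with 10 called lower.
cKO replicate 2 was the highest of the cKO samples in 4 of the 6 listed genes that rose, and it was also the highest in the sums of the fibroblast, macrophage, endothelial, smooth muscle and glial markers. The same sample was highest in the sum of each pathway list too, as in receptors and SMADs (996 CPM against 959 and 968 CPM). It was therefore not particular to the marker lists, and how often this sample was highest over all genes was not counted. The part of other cell types in the values of the listed genes was not tested.

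**Figure D5:**
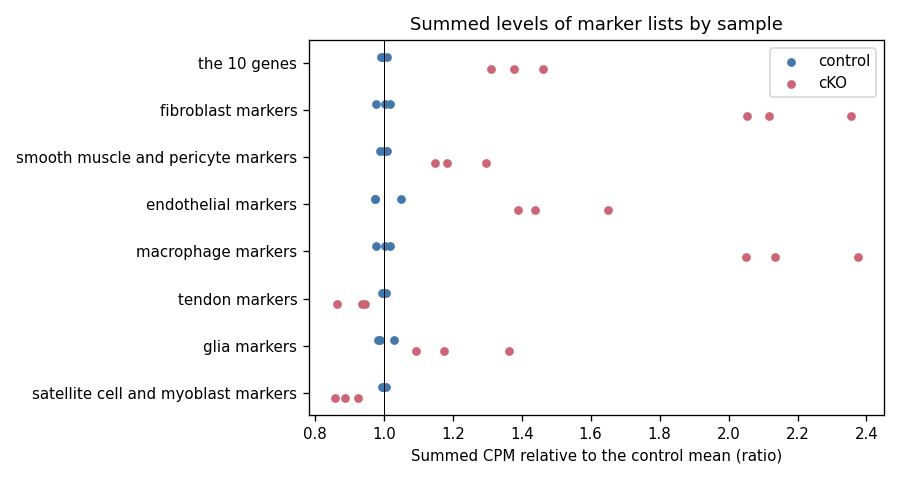
Summed CPM of the 10 listed genes and of each marker list, relative to the mean of the control samples, one point per sample (blue, control; red, cKO). In cKO the sum of the 10 genes was 1.38 times the control mean, and those of the fibroblast and macrophage markers 2.17 and 2.19 times.

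Finally, the genes most like Lox, the listed gene with the highest level per length, were sought among all genes tested by the root mean square difference of log2 CPM, centred on each gene's mean, over the 6 samples. The nearest were Id4 (0.0195), Fes (0.0257) and Nid1 (0.0294), with log2 fold changes of 0.66, 0.67 and 0.71. With only 2 groups of samples such likeness mainly reflects the size of the difference between them.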

How the data were processed

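RNA-seq counts of 6 samples (3 control, 3 cKO) were analysed. According to the paper's methods and the processing notes, the authors aligned single-end reads of 75 bases to mm10 with Bowtie2 2.3.4.2, which does not split reads at introns, and deposited raw counts per gene from featureCounts 1.6.3; the strand setting was not given in the sources used here. A deposited table of normalized values and the authors' DESeq2 2.11.40.6 comparison (fold changes and p-values) were not used.

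All 55536 identifiers were matched to GENCODE M21 (same build), which gave symbols, coordinates and merged exons. Genes were kept with filterByExpr, scaled by TMM and tested with edgeR 4.0.16 in R 4.3.3 (quasi-likelihood test, genotype as the only term, Benjamini-Hochberg adjustment over 22404 genes), a procedure tested on simulated data. Depth was 47944477 to 63323577 counts, and replicates varied by a common biological coefficient of 3.92%, so that counting error limits mainly Eln and Fbn2. No 2 replicates agreed within sampling noise.

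The 10 genes, the pathway and marker lists and the tests were chosen with earlier results of these data known. Named were all 10 genes and, per list, up to 4 called genes with the largest absolute change and at least 10 counts in each sample of the higher group; other genes of the lists were named after their values were seen. Alternatives were DESeq2 1.42.0, RLE factors, total counts, no filter, a replicate block, leaving out each sample, and another length. The values of 1 gene of the lists are not reported here.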

Additional observations from a re-analysis of the deposited data

How the results depend on the processing

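The call and direction of Ltbp2, Fbln5, Fbn1, Lox, Ltbp4 and Loxl1 held under all 11 alternative fits. Omitting single samples, 6 to 7 of the 10 genes were called higher and 0 to 1 lower, and their median log2 fold change ran from 0.30 to 0.43; the call of Ltbp1 was lost without control replicate 3 (log2 fold change -0.13), a fit with fewer samples. Ltbp3, which was not called, turned sign when scaled by total counts only (0.016) and without cKO replicate 1 (0.015), and ranged from -0.027 to 0.015 when single samples were omitted. Over all genes, leaving out 1 sample gave 917 to 1671 genes called lower; the count was 917 without control replicate 1, 934 without control replicate 2 and 960 without control replicate 3, against 1448 with all samples. Scaling by total counts only turned the split of 2101 higher and 1448 lower genes into 2461 and 1057. For the pathway lists the same fits gave medians of 0.074 to 0.15 for microfibril partners (0.074 without cKO replicate 3), 0.11 to 0.14 for receptors and SMADs, 0.25 to 0.30 for target genes and 0.35 to 0.47 for proteases and inhibitors, with 0 to 1 protease or inhibitor gene and 1 to 2 ligand or activator genes called lower. With DESeq2, with RLE size factors and without the filter, 1 protease or inhibitor gene was called lower, and scaling by total counts only gave a receptor and SMAD median of 0.15; the cause was not tested. The ratio of the highest to the lowest control level per length was 1965 by exon length and 1645 by windows within an exon. Over all genes tested, same-numbered samples had correlations of their deviations from the group means of -0.01, -0.0045 and -0.01. Those of differently numbered samples ran from -0.0074 to 0.020. These values showed no pairing by replicate number, but they cannot exclude a pairing of the samples. With a replicate block 6 of the 10 genes were called higher, 1 lower, and 1901 and 1251 over all genes. Counting error limits Eln, at 16 to 26 counts per sample.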
